A study of Mus musculus with 9 samples.

Results

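The axon guidance ligands and receptors named in 9 Omni-ATAC-seq peak lists of mouse brain endothelial cells (ECs) were 62 of the 20035 gene names in those lists. They were taken by name, as every gene whose name starts with Epha, Ephb, Efna, Efnb, Sema, Plxn, Robo or Unc5, or with Slit or Ntn followed by a digit. Efnb2, Ephb4, Sema3g and Unc5b, which have well known roles in vessels, were left out of the 62. The members were 7 ephrins, 12 Eph receptors, 6 secreted and 13 membrane-bound semaphorins, 8 plexins, 4 netrins, 2 Slit ligands, 4 Robo receptors and 3 Unc5 receptors, plus 3 names that the spelling rule takes although they are not guidance genes, namely the antisense transcript Plxna4os1, Unc50 and Unc5cl. They held 1458 of the 253457 peaks.

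Omni-ATAC-seq reports open chromatin as DNA that the transposase Tn5 can cut, and a peak is a stretch with more cuts than its surroundings. By the labels, 2 libraries were WT Cre and 3 EC-K4KO among the young, and 2 were WT Cre and 2 EC-K4KO among the old. All groups, controls included, carried the tamoxifen-inducible, EC-directed Cdh5 Cre driver and received tamoxifen as adults, and Klf4, which encodes a zinc-finger transcription factor, was floxed and deleted in ECs of EC-K4KO mice alone. The mice were of both sexes on a C57BL/6J background. The labels give age as young or old and state no sex per library. Library names carry 1 prefix in every young library and another in every old library, so age and whatever the prefix marks cannot be told apart. The labels call the libraries replicates and do not say whether each came from its own animals, so the p-values below measure the spread between these libraries. Read totals were not analysed here, so the depth behind each list is unknown.

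Guidance ligands steer growing axons by attracting or repelling them. Ephrins bind Eph receptors on neighbouring cells, semaphorins signal through plexins, often with a neuropilin, Slit proteins bind Robo receptors, and netrins bind Dcc and Unc5 receptors. Blood vessels use the same families when they sprout and branch, and Plxnd1 and Robo4 are the plexin and Robo receptor best known from endothelium.

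The lists differed in length, from 6157 and 9598 peaks in young WT Cre to between 23848 and 45026 in the other 7 libraries, and this touches every count below. Endothelial marker genes with any peak numbered 9 to 12 of 12 across libraries, and 5 to 9 of 12 had a promoter-TSS peak, a peak whose centre the authors' annotation placed at a transcription start site (TSS). Neuron markers with any peak numbered 1 and 3 of 10 in young WT Cre, 7, 6 and 7 in young EC-K4KO, 7 and 8 in old WT Cre and 10 and 9 in old EC-K4KO. Pericyte and mural markers with any peak numbered 0 to 7 of 8, astrocyte markers 0 to 8 of 8, oligodendrocyte markers 0 to 5 of 8 and microglia markers 0 to 3 of 8. The part of these marker peaks in the results below was not tested. In lists of equal length, each limited to its top 6157 peaks by -log10 p, at most 1 of 10 neuron markers had a peak. Endothelial markers with a peak there numbered 8 or 9 of 12. Astrocyte markers numbered 0 and 0 of 8 in young WT Cre and 1, 0 and 0 in young EC-K4KO. In the old they numbered 1 and 2 in WT Cre and 2 and 2 in EC-K4KO. Pericyte and mural markers and oligodendrocyte markers numbered 0 to 1 of 8, and microglia markers 0 of 8. Klf4 itself had a promoter-TSS peak in all 9 libraries, which does not check the deletion because a promoter peak need not lie in the deleted part.

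Sequences of the guidance gene promoters and distal regions on which the results turn are given first. RefSeq windows (GRCm38.p6, the build also called mm10) from 250 bp before to 50 bp after the start were found for 53 of the 62 members, and none was found for Efnb3, Ntn1, Plxna1, Plxna4, Plxna4os1, Sema3b, Sema3f, Sema6a and Unc5d. Capitals mark matches, on either strand, to any of 4 letter patterns, namely CCNCNCCC for KLF factors, CCGGAAGT for ETS factors, TGANTCA for AP-1 and GGGGCGGGG for SP factors. Every SP match also contains a KLF match. The first 3 windows belong to promoters that were open in all 9 libraries. They lie at chr5:17574566-17574865 on the plus strand, chr17:56133803-56134102 on the minus strand and chr4:28812881-28813180 on the plus strand, and each lay inside its gene's merged peak region.
Sema3c promoter: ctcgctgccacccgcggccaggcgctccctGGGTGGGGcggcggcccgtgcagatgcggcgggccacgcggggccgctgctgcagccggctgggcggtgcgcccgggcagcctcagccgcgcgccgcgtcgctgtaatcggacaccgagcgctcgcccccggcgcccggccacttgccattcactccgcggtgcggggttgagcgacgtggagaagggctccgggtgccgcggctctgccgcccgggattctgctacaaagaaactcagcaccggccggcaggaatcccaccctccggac
Sema6b promoter: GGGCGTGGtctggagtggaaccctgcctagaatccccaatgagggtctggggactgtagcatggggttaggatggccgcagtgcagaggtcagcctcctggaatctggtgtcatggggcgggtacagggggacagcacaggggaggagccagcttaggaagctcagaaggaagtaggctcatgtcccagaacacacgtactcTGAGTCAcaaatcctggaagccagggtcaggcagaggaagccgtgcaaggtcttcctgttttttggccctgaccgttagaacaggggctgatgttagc
Epha7 promoter: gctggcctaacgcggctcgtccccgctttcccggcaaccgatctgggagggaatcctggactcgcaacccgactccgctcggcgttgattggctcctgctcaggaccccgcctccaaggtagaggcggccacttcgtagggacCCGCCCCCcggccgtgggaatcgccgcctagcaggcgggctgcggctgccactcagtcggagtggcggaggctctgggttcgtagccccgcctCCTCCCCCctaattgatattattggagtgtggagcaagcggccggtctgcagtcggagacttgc
The next windows belong to the Plxnd1 and Robo4 promoters, which had a peak in all 7 libraries outside young WT Cre and in neither young WT Cre library. They lie at chr6:115994956-115995255 on the minus strand and chr9:37401722-37402021 on the plus strand.
Plxnd1 promoter: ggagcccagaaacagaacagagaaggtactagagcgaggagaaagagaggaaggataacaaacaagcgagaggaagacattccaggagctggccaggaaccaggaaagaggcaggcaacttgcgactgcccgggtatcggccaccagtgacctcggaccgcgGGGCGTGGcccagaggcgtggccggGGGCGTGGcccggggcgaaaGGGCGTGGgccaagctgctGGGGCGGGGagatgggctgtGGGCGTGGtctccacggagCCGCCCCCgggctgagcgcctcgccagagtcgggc
Robo4 promoter: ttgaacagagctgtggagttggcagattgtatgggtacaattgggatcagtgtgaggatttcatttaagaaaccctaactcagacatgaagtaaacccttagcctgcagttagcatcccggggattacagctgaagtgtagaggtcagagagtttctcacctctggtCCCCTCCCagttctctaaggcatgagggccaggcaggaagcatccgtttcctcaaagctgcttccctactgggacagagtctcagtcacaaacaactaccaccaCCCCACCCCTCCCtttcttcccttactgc
The last 3 windows are 300 bp of the plus strand of the GRCm38 genome around the centre of a distal region. They lie at chr6:115996213-115996512 upstream of Plxnd1, chr1:194658406-194658705 in intron 3 of Plxna2 and chr9:37420722-37421021 in intron 17 of Robo3.
Plxnd1 upstream region: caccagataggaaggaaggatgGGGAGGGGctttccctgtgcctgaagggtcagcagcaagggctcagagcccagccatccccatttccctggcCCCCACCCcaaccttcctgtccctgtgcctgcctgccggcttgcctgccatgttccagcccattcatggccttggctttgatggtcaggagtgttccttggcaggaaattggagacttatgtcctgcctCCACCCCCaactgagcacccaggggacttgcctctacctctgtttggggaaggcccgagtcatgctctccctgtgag
Plxna2 intron region: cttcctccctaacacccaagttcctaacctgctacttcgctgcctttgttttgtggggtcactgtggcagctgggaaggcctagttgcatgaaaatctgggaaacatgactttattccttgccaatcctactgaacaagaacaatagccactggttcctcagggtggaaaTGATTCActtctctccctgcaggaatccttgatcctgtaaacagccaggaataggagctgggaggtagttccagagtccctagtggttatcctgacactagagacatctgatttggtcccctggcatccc
Robo3 intron region: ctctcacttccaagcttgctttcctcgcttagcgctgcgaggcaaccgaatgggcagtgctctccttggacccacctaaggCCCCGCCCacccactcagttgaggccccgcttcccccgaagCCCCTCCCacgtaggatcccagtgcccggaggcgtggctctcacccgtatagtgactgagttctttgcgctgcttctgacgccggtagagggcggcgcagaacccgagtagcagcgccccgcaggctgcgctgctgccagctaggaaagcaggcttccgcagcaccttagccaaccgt

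The Plxnd1 promoter window held 6 matches to the KLF pattern and 1 to the SP pattern. The windows of Robo4, Epha7, Sema3c and Sema6b held 3, 2, 1 and 1 KLF matches. Over the 69 windows of the 53 members, 88.4% held a KLF match, against 49.5% of all 32851 RefSeq promoter windows. An SP match was found in 24.6% of member windows against 11.4% of all, an AP-1 match in 4.35% against 7.81%, and an ETS match in 0% against 3.89%. The Sema6b window held the AP-1 pattern, and so did a window of Sema4c and of Sema4d. Among the distal regions, the windows upstream of Plxnd1 and in Robo3 held 3 and 2 KLF matches and the Plxna2 window held 1 AP-1 match. Of 1811 distal regions with a peak in all 9 libraries, 59.6% held a KLF match and 13.7% an AP-1 match in a window of the same length. The KLF and SP patterns hold only C and G besides N, and the windows compared were not matched for base content or for type of gene. A match is a run of letters and was not tested as a binding site.

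The first comparison asked how many guidance genes had an open promoter in each library. A promoter-TSS peak was found at 8 and 10 of the 62 members in young WT Cre, at 15, 19 and 21 in young EC-K4KO, at 28 and 27 in old WT Cre and at 28 and 32 in old EC-K4KO. The group means were 14.5% ± 2.28 of members (SD, n = 2) for young WT Cre and 29.6% ± 4.93 (n = 3) for young EC-K4KO, then 44.4% ± 1.14 (n = 2) for old WT Cre and 48.4% ± 4.56 (n = 2) for old EC-K4KO. Young WT Cre libraries were lowest, young EC-K4KO libraries lay in between, and the groups of old libraries overlapped each other. All gene names followed the same order, with 19.7% ± 3.81, 34.3% ± 3.51, 40.5% ± 0.113 and 41.8% ± 0.667. By this class, members were below all genes in each of the 5 young libraries and above them in each of the 4 old ones, but this depended on the definition. With promoters taken within 1000 bp of the start, members were above all genes in young EC-K4KO 1 (46.8% against 40.8%) and young EC-K4KO 3 (51.6% against 47.4%) too. The rise from young WT Cre to the old was gone in lists of equal length, and members were below all genes in every library. Between 5 and 8 members then had a promoter-TSS peak in every library (8.06% to 12.9%), with 8 and 7 in young WT Cre and 5 to 8 in the rest, against 17.0% to 19.8% of all gene names.

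**Figure D1:**
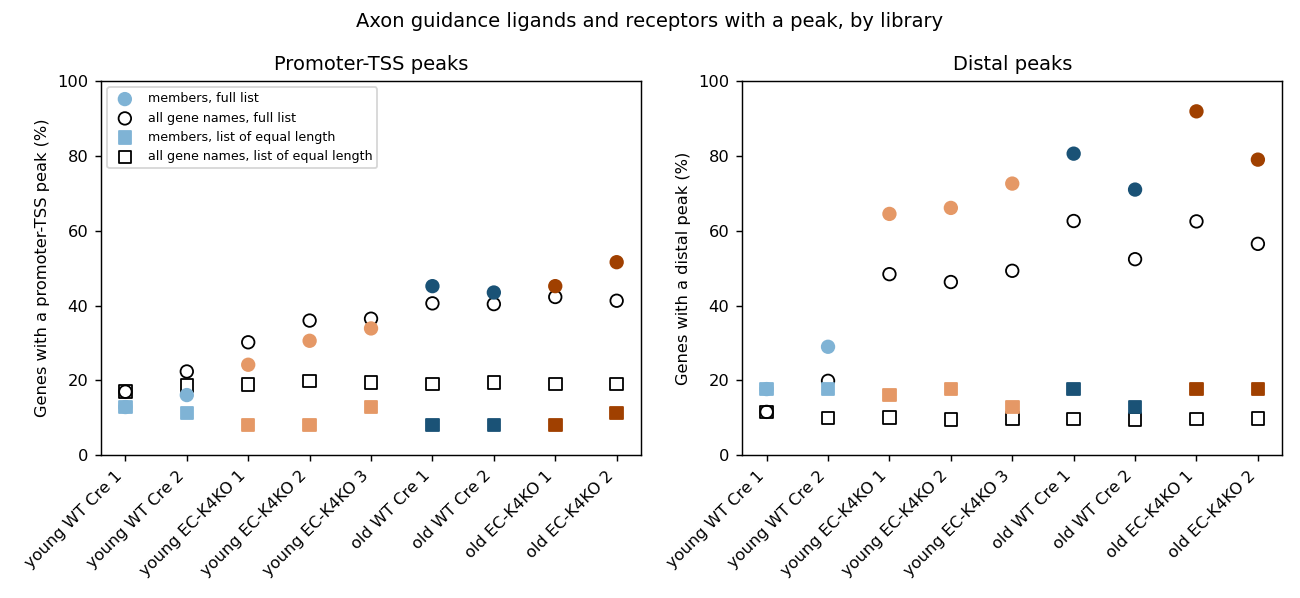
Share of genes with a promoter-TSS peak (left) or a distal peak (right) in each of the 9 libraries, in percent. Filled symbols are the 62 guidance names, coloured by group, open symbols are all 20035 gene names, circles are the full lists and squares the 6157 strongest peaks of each library. The circles rise from young WT Cre to the old libraries for members and for all genes, and the squares do not.

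Promoter-TSS peaks were found at 40 of the 62 members in at least 1 library and at 22 in none. Sema3c, Sema6b and Epha7 had one in all 9. Sema3c encodes a secreted semaphorin that acts through neuropilins and plexins. Its promoter peak had a fold enrichment (signal over the local background, as the peak caller gave it) of 4.41 and 3.75 in young WT Cre, 4.41, 5.74 and 5.66 in young EC-K4KO, 3.74 and 4.65 in old WT Cre and 4.87 and 5.16 in old EC-K4KO. The groups overlapped. Sema6b encodes a transmembrane semaphorin, and its promoter fold was 3.95 and 4.66 in young WT Cre, 3.4, 5.89 and 5.08 in young EC-K4KO, 4.82 and 4.85 in old WT Cre and 5.53 and 5.88 in old EC-K4KO. Epha7, an Eph receptor for A-type ephrins, had the strongest of these promoters, with folds of 5.74 and 7.70, then 6.22, 7.65 and 11.5, then 7.83 and 9.24, then 10.1 and 11.3 in the same order of groups. In 8 of 9 libraries the Epha7 peak stood at most 10.8% down its own list, ranked by -log10 p, and in young WT Cre 1 it stood 28.2% down the list.

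Among the ligands, Efnb1 and Sema6c had a promoter-TSS peak in 8 libraries and lacked it in young WT Cre 1. Efnb1 encodes a transmembrane ephrin. Its fold was 5.13 in young WT Cre 2, 3.81, 6.02 and 6.32 in young EC-K4KO, 5.80 and 6.69 in old WT Cre and 7.86 and 6.02 in old EC-K4KO. For Sema6c, another transmembrane semaphorin, it was 5.17, then 3.95, 9.10 and 7.33, then 6.14 and 8.15, then 9.20 and 9.46. Efna1, a membrane-anchored ephrin known to respond to inflammatory signals in endothelium, had a promoter-TSS peak in neither young WT Cre library, in young EC-K4KO 2 and 3 (3.78 and 3.34) and in all 4 old libraries (3.47 to 4.48). Sema6a had a promoter-TSS peak in the same libraries, with folds of 4.56 and 5.08 in young EC-K4KO 2 and 3 and 4.17 to 4.32 in the old ones. In young EC-K4KO 1, peaks of another class lay in the same merged region at Efna1 (2.53) and Sema6a (3.99). Netrin 1 (Ntn1), which attracts or repels axons depending on the receptor, had a promoter-TSS peak in the 4 old libraries and in no young one, with folds of 3.4 and 3.33 in old WT Cre and 5.10 and 4.29 in old EC-K4KO. The same merged region held peaks of another class in young EC-K4KO 1 and 3 (2.68 and 3.35), so the difference from young EC-K4KO was one of class in these libraries. Slit3 had a promoter-TSS peak in both old EC-K4KO libraries alone (3.90 and 3.33), and its region held a peak of another class in young EC-K4KO 1 (2.69). Efna5, Sema3a, Sema3b, Sema3d and Sema3f had no promoter-TSS peak in any library.

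Among the receptors, Plxnd1 had the clearest presence and absence. Plxnd1 is a receptor for secreted semaphorins that restrains vessel sprouting. Its promoter had no peak in young WT Cre 1 or 2, folds of 3.26, 6.90 and 6.45 in young EC-K4KO, 5.47 and 5.97 in old WT Cre and 5.62 and 6.84 in old EC-K4KO. In these 7 libraries the peak stood 9.04% to 21.3% down its list. Robo4, a Robo receptor of endothelium, had no promoter peak in young WT Cre, folds of 3.44, 6.12 and 6.09 in young EC-K4KO, 6.66 and 5.94 in old WT Cre and 7.72 and 6.64 in old EC-K4KO. Plxna3, a semaphorin receptor, followed the same presence but with weaker peaks in the young. Its folds were 3.02, 5.16 and 6.02 in young EC-K4KO, 7.24 and 10.3 in old WT Cre and 12 and 10.8 in old EC-K4KO. By these folds, which were not normalized between libraries, every old library was above every young one for Plxna3. The median fold over all distal peaks was 3.02, 3.88 and 3.89 in young EC-K4KO. It was 3.08 and 4.19 in old WT Cre and 4.31 and 4.84 in old EC-K4KO.

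Other receptors also had promoter peaks outside young WT Cre alone. Plxnb2, a receptor for class 4 semaphorins, had folds of 5.20 and 4.33 in young EC-K4KO 2 and 3 and 4.46 to 7.08 in the old libraries. Plxna1 had a promoter-TSS peak in 5 libraries (3.33 to 4.85), Ephb1 in 6 (2.52 to 7.16), Unc5c in 6 (2.89 to 4.02), Ephb6 in 5 (2.70 to 5.75) and Epha3 in 5 (3.21 to 4.05), none of them in young WT Cre. Plxnb1, another class 4 semaphorin receptor, had a peak classed promoter-TSS in the 4 old libraries, with folds of 2.83 and 3.77 in old WT Cre and 4.41 and 4.67 in old EC-K4KO. Young EC-K4KO 2 and 3 had peaks of 4.02 and 3.70 in the same merged region under another class, so only young WT Cre and young EC-K4KO 1 had none there. Ephb3 was present in young WT Cre 1 (3.81) and absent from young WT Cre 2.

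**Figure D2:**
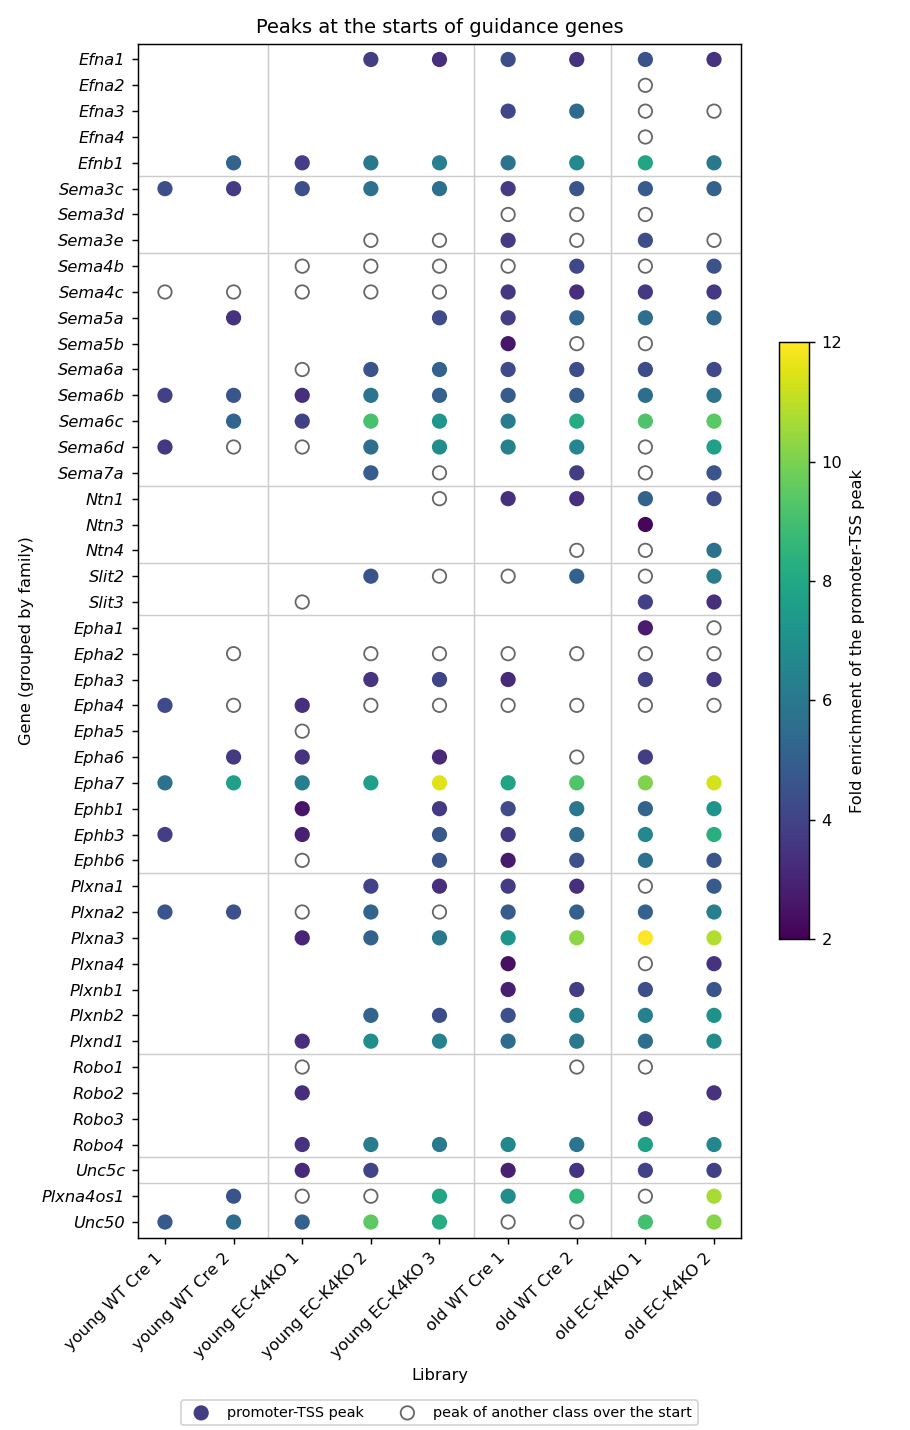
Guidance genes (rows, grouped by family) by library (columns). Filled circles are promoter-TSS peaks coloured by fold enrichment, from 2 to 12, and open circles are peaks of another annotation class that cover a GENCODE start of the gene. Sema3c, Sema6b and Epha7 are filled in all 9 columns, and Plxnd1, Plxna3 and Robo4 are filled in the 7 columns outside young WT Cre.

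A count of gains was made for each pair of groups, where a gain is a peak in no library of the reference group and in at least 2 of the other. Against young WT Cre, a promoter-TSS peak was gained by 10 of 62 members in young EC-K4KO (13.1% of all gene names did so), by 14 in old WT Cre (14.9%) and by 14 in old EC-K4KO (16.8%). These 3 comparisons share the young WT Cre libraries. Sema4c was among the 14 in each old group by class alone, since a peak covered its start in all 9 libraries. The 10 in young EC-K4KO were Efna1, Sema6a, Epha3, Ephb1, Plxna1, Plxna3, Plxnb2, Plxnd1, Robo4 and Unc5c. Members gaining were 16.1%, 22.6% and 22.6% of the 62. In lists of equal length the gains were 1 in young EC-K4KO (Plxnd1, against 2.64% of all gene names), 2 in old WT Cre (Plxnd1 and Robo4, against 2.37%) and the same 2 in old EC-K4KO (against 2.50%). Plxnd1 thus entered the strongest 6157 peaks in at least 2 libraries of each of the 3 groups, and Robo4 did so in the 2 old groups. In young EC-K4KO 1, 2 and 3 the Robo4 promoter stood 26.8%, 24.6% and 19.6% down its list. Those lists held 23848, 25309 and 27992 peaks, so the Robo4 call in that group turns on where the list is cut.

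Within the old, EC-K4KO against WT Cre gained a promoter-TSS peak at 2 members, Slit3 and Unc50 (1.34% of all gene names). Old EC-K4KO against young EC-K4KO gained one at 4, Ntn1, Plxnb1, Sema4c and Slit3 (3.11%). All 4 had a peak of another class in the same merged region in at least 1 young EC-K4KO library, so these gains were changes of class at least in part. A promoter-TSS or distal peak was lost by 0 members in young EC-K4KO (0.499% of all gene names), 1 in old WT Cre (0.784%) and again 0 in old EC-K4KO (0.953%), each against young WT Cre. In lists of equal length such losses numbered 3 members in young EC-K4KO (1.20% of all gene names). In the old they numbered 5 for WT Cre (2.33%) and 4 for EC-K4KO (2.74%). Promoter gains in those lists were 1, 2 and 2 members and distal gains 3, 1 and 2. Efna3, Plxna2 and Sema4c were among the losses in all 3 groups, though each had a region with a peak in all 9 full lists. Unc50, taken up below, was among the 5 in old WT Cre. In full lists a promoter-TSS or distal peak was lost by 1 member in old EC-K4KO against old WT Cre (2.52%) and by 1 against young EC-K4KO (6.07%). The loss in old WT Cre was Unc50, and it came from the naming of the peak, as did the gain of Unc50 in old EC-K4KO. A peak with folds of 9.20 and 9.09 covered the Unc50 start in both old WT Cre libraries, but the list gave it to Coa5, which shares that start. The loss of Efna3 in old EC-K4KO against old WT Cre was of the same kind, since peaks with folds of 3.92 and 3.99 covered its start in old EC-K4KO under another annotation class. The last loss, of Plxnb1, was again a change of class, since the region that held its peak in young EC-K4KO 2 and 3 had the promoter-TSS peaks of 4.41 and 4.67 in old EC-K4KO.

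Because the annotation goes by the centre of a peak, broad peaks over a start could be listed as intron or exon. A count of any peak over a GENCODE start of the gene, chosen after the data were seen, gave 8 and 10 members in young WT Cre, 23, 24 and 27 in young EC-K4KO, 31 and 36 in old WT Cre and 41 and 35 in old EC-K4KO. Epha4, Plxna2, Sema4c, Sema6d and Unc50 then joined Sema3c and Sema6b with a peak in all 9 libraries, and Epha7 lacked one in young WT Cre 2. Epha4, an Eph receptor that binds both ephrin classes, had folds of 4.26 and 3.76 in young WT Cre, 3.37, 5.88 and 6.81 in young EC-K4KO, 5.05 and 5.37 in old WT Cre and 6.33 and 6.22 in old EC-K4KO. Slit2, a ligand of Robo receptors, had a peak over its start in young EC-K4KO 2 and 3 (4.53 and 3.68) and in the 4 old libraries (3.88 to 6.18). It had none in either young WT Cre library. Plxnd1, Robo4 and Plxna3 stayed without a peak over the start in young WT Cre under this count too.

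Of the genes left out of the 62, Efnb2 and Ephb4 had a promoter-TSS peak in all 9 libraries (folds of 4.33 to 8.6 and 4.14 to 7.50), Unc5b had a peak over its start in all 9 (5.77 to 9.71), and Sema3g had a promoter-TSS peak in 6.

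Distal peaks, all those not classed promoter-TSS, were more often found at guidance genes than at gene names in general, in full lists. They were found at 11 and 18 members in young WT Cre, 40, 41 and 45 in young EC-K4KO, 50 and 44 in old WT Cre and 57 and 49 in old EC-K4KO. The shares were 23.4% ± 7.98 (SD, n = 2), 67.7% ± 4.27 (n = 3), 75.8% ± 6.84 (n = 2) and 85.5% ± 9.12 (n = 2), against 15.8% ± 5.91, 48% ± 1.52, 57.5% ± 7.18 and 59.5% ± 4.27 of all gene names. Young WT Cre did not overlap with any other group. In lists of equal length 8 to 11 members had a distal peak in every library (12.9% to 17.7%), against 9.51% to 11.6% of all gene names. The members are long genes, with a median GENCODE length of 43.3 kb against 19.1 kb for all named genes.

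Against young WT Cre, a distal peak was gained by 21 members in young EC-K4KO (26.2% of all gene names), 23 in old WT Cre (27.5%) and as many as 30 in old EC-K4KO (33.3%), which are 33.9%, 37.1% and 48.4% of the 62. In lists of equal length these fell to 3 (1.63%), 1 (1.36%) and 2 (1.71%). Robo3 was the member named in all 3 of these short lists. A region in intron 17 of Robo3, 12.3 kb from its start, had folds of 2.93, 7.17 and 7.40 in young EC-K4KO, 7.86 and 8.79 in old WT Cre and 11.5 and 12.3 in old EC-K4KO, with no peak in young WT Cre. By these folds, not normalized between libraries, the 3 groups were in the order young EC-K4KO, old WT Cre, old EC-K4KO with no overlap. The neighbouring gene on this stretch is Robo4, and the list assigned the region to Robo3. Epha1, an Eph receptor, was named in 2 of the 3, and a region 8.96 kb upstream of it had folds of 4.18, 6.86 and 7.14, then 7.87 and 7.34, then 9.15 and 9.32. Old EC-K4KO gained distal peaks at 2 members against old WT Cre, Efnb3 and Sema4a (3.20%), and at 2 against young EC-K4KO, Efnb3 and Ephb3 (6.47%).

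The 1261 distal peaks of the members lay 42.5 kb from the nearest start in the median, against 27.5 kb for all distal peaks, and 34.4% of them lay over 100 kb away, against 19.4%. Introns held 46.9% and intergenic stretches 44.6% of them, near the 43.9% and 45.3% of all distal peaks. Only 42.5% lay in an intron or exon of the gene they were assigned to, so the link to that gene is one of distance. A q under 0.01 was reached by 60.0% of member distal peaks and by 65.1% of all.

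The 6 members with most distal peaks were Sema6a, Efna5, Sema7a, Sema6d, Sema4c and Plxna2. Sema6a, a transmembrane semaphorin, had 3 and 3 in young WT Cre, 7, 8 and 7 in young EC-K4KO, 10 and 7 in old WT Cre and 17 and 15 in old EC-K4KO. Sema7a, a membrane-anchored semaphorin that signals through integrins and Plxnc1, had 0 and 1, then 2, 8 and 8, then 7 and 9, then 12 and 9. Sema4c had 1 and 1, then 2, 4 and 5, then 9 and 8, then 12 and 10. Plxna2, a receptor for class 3 and class 6 semaphorins, had 2 and 4, then 4, 3 and 6, then 6 and 5, then 10 and 10, and Plxnd1 had 1 and 1, then 2, 3 and 5, then 7 and 5, then 10 and 8. Sema6d had 1 and 3, then 4, 6 and 5, then 10 and 5, then 12 and 8, and old WT Cre overlapped both EC-K4KO groups. For Sema6a, Sema4c, Plxna2 and Plxnd1, both old EC-K4KO libraries were above every other library. Plxnd1 is not among the 6, and of the 6, Sema7a, Sema6d and Efna5 did not have this order. The counts come from full lists of unequal length, and genes with this order were not counted over all gene names. Most of the Sema7a peaks had a q under 0.01, namely 0 and 0, 2, 8 and 7, 7 and 8, and 12 and 9.

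A second pattern was seen at other members, which were picked after their values were seen. Efna5, an ephrin of axon mapping, had 1 and 2 distal peaks in young WT Cre, 4, 6 and 8 in young EC-K4KO, 19 and 10 in old WT Cre and 10 and 9 in old EC-K4KO. The Eph receptor Epha7 had 0 and 0, then 6, 3 and 7, then 15 and 3, then 4 and 3. Epha6 had 0 and 0, then 4, 4 and 3, then 10 and 2, then 2 and 4. Unc5d, a netrin receptor, had 0 and 0, then 3, 5 and 6, then 7 and 5, then 1 and 2. With Epha3 and Epha5, these 6 genes held 67 distal peaks in old WT Cre 1 and 27 in old WT Cre 2, so 1 library held most of the old WT Cre peaks. Without old WT Cre 1, the largest sum was 30, in young EC-K4KO 3. The peaks were weak, since 61 of the 219 had a q under 0.01, with 13 of 67 in old WT Cre 1. The genes span 154 to 952 kb, and peaks at the 10 neuron markers numbered 1 and 3 in young WT Cre, 11, 8 and 12 in young EC-K4KO, 20 and 12 in old WT Cre and 23 and 18 in old EC-K4KO. In the same order, peaks at the 8 astrocyte markers numbered 0 and 4, then 9, 12 and 14, then 24 and 19, then 36 and 34. At the 8 pericyte and mural markers they numbered 1 and 0, then 2, 0 and 4, then 4 and 13, then 19 and 14. Oligodendrocyte markers had 0 to 9 peaks in any library and microglia markers 0 to 3. The part of these marker peaks in this pattern was not tested.

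**Figure D3:**
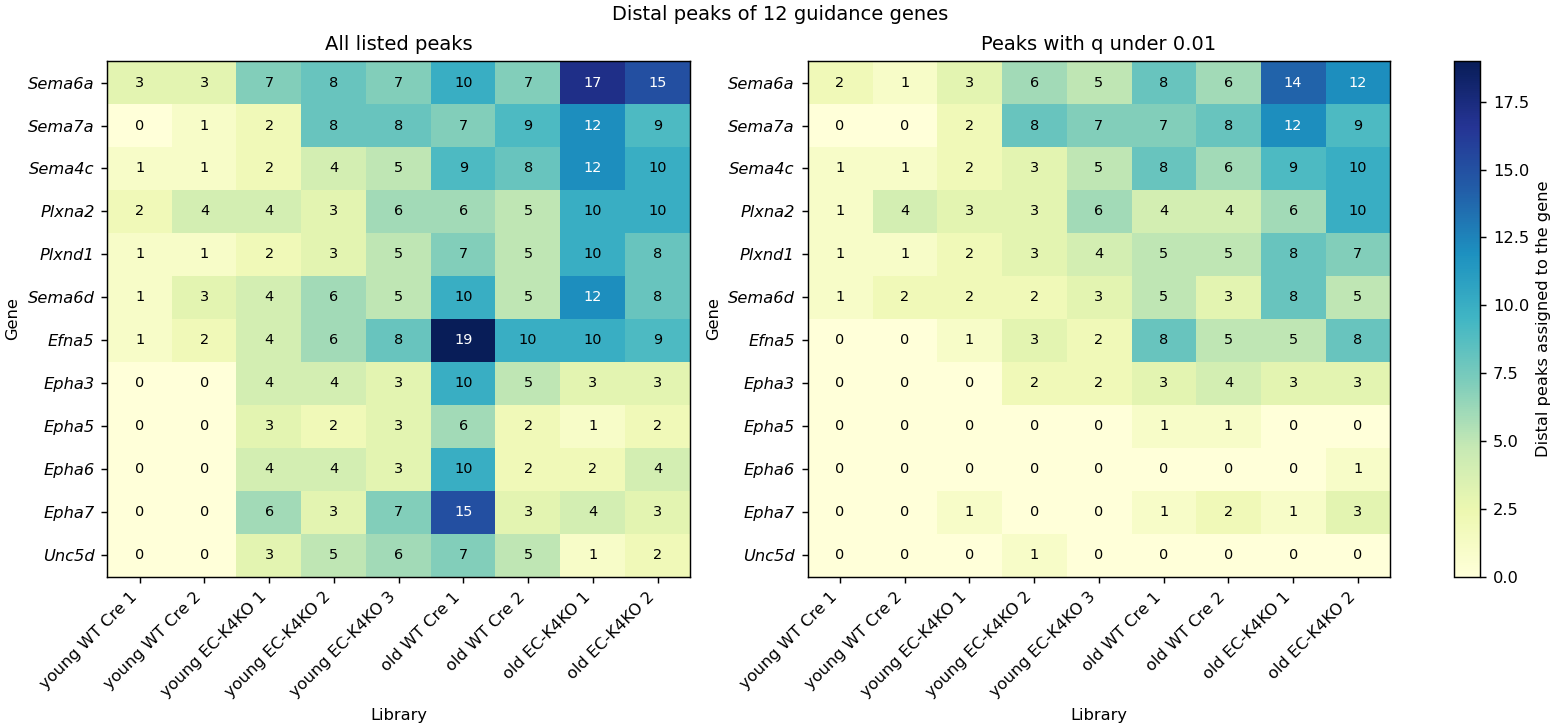
Number of distal peaks assigned to 12 guidance genes (rows) in each library (columns), over all listed peaks (left) and peaks with a q under 0.01 (right). Sema6a reaches 17 and 15 in old EC-K4KO in the left panel and 14 and 12 in the right, while Efna5 falls from 19 to 8 and Epha7 from 15 to 1 in old WT Cre 1.

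Merging overlapping peaks gave 635 regions at the members. Of these, 404 were seen in 1 library (63.6%, against 57.3% of all regions), 116 of them in old WT Cre 1, and 17 in all 9 (2.68%, against 5.27%). A peak in all 7 libraries outside young WT Cre and in neither young WT Cre library was found in 18 regions, or 2.83%, against 3.94% of all 92495 merged regions. Besides the Plxnd1, Plxna3 and Robo4 promoters, these included an intron 1 region of Epha3 6.66 kb from the start (folds of 3.23 to 5.96), a region 1.75 kb upstream of Efna5 (3.73 to 6.51) and a region 11.8 kb upstream of Plxnd1 (2.69 to 7.27). Another 23 regions (3.62%, against 3.81% of all) had a peak in all 4 old libraries and in no young one. These included an intergenic region 97.1 kb from Efnb1 (folds of 4.85 to 7.75), a region 51.2 kb from Plxna1 in an intron of Chchd6 (6.14 to 6.91) and a region in intron 2 of Ntn1 72.7 kb from its start (3.19 to 6.64). These regions were picked after their values were seen. A peak in all 5 EC-K4KO libraries and no WT Cre library was found in 0 member regions, and in 0.0195% of all. Regions seen in both old EC-K4KO libraries alone numbered 26 (4.09%, against 3.84% of all), and those in both old WT Cre libraries alone numbered 1 (0.157%, against 0.342%).

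**Figure D4:**
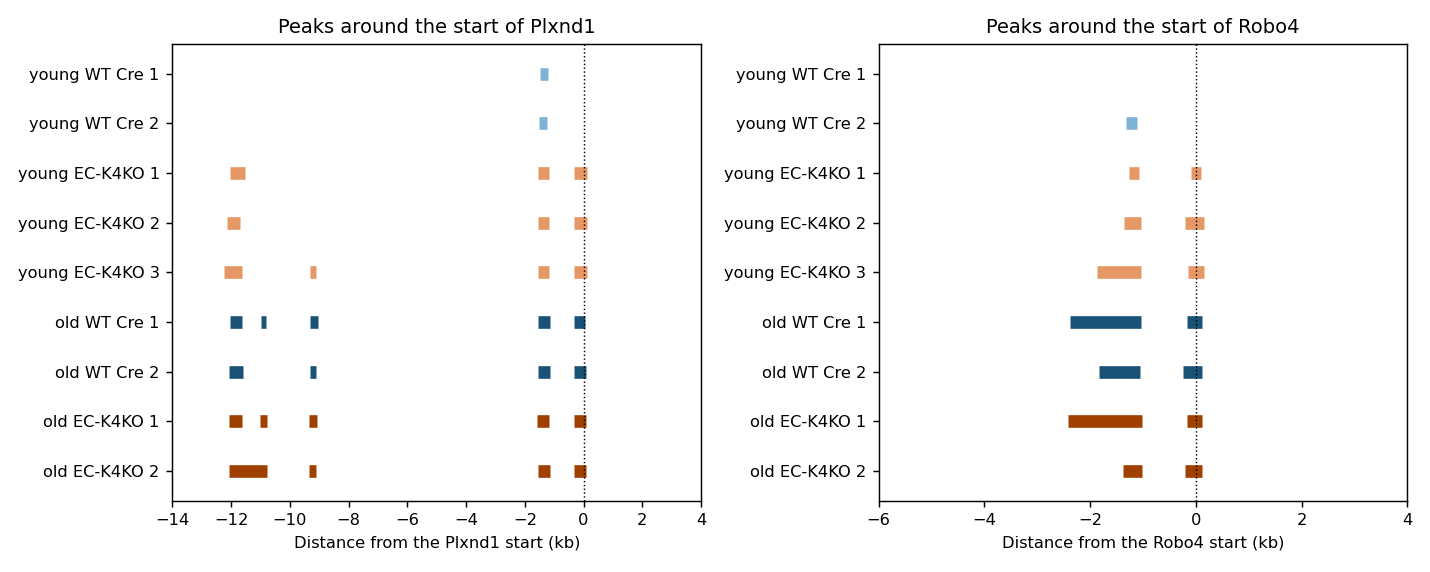
Peaks (bars) in each library around the starts of Plxnd1 (left) and Robo4 (right), by distance from the RefSeq start in kb in the direction of transcription, with the dotted line at the start. The Plxnd1 peak 1.36 kb upstream is drawn in all 9 rows, and the bars at both starts are drawn in the 7 rows outside young WT Cre.

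Strength was compared at the 17 member regions with a peak in every library, within a limma fit to all 4872 such regions, after quantile normalization of log2 fold enrichment, with Benjamini-Hochberg adjusted p-values and a threshold of 0.05. Values are thus relative to the other shared regions of the same library. The young WT Cre lists were the shortest (6157 and 9598 peaks), so they limited most which regions were shared. A region near their calling limit was kept only if both had a peak, which can favour high young WT Cre values. The part of this choice in the differences below was not tested. With age, over both genotypes, 3 member regions changed, 2 up and 1 down (27.5% of all shared regions changed, 606 up and 734 down). With genotype, over both ages, 0 member regions changed (0.0616% of all, or 3 regions), and at an unadjusted p under 0.05 there were 3 of 17 (17.6%), against 774 of 4872 (15.9%). No region, member or not, passed for the interaction of age and genotype (0% of all) or for genotype in the old (0%), where 2 and 0 member regions had an unadjusted p under 0.05, against 396 and 186 of all regions.

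The region upstream of Plxnd1 (chr6:115996145-115996575, intergenic, 1.36 kb before the start) gained strength with age. Its fold was 3.98 and 4.13 in young WT Cre, 3.10, 5.29 and 4.62 in young EC-K4KO, 7.60 and 6.97 in old WT Cre and 9.39 and 7.80 in old EC-K4KO, so that every old library was above every young one. The normalized log2 fold was 2.45 ± 0.01 (SD, n = 2), 2.11 ± 0.11 (n = 3), 2.68 ± 0.15 (n = 2) and 2.73 ± 0.15 (n = 2). The difference with age was 0.43 ± 0.09 (log2, SE; limma adjusted p = 0.00697). It was 0.62 ± 0.12 in EC-K4KO alone (limma adjusted p = 0.0265; 4.45% of all regions passed), and young EC-K4KO was 0.57 below old WT Cre (limma adjusted p = 0.0352; 2.07% passed). In WT Cre alone it was 0.24 ± 0.13 (limma adjusted p = 0.241). The difference between these age effects was 0.38 ± 0.18 (limma adjusted p = 0.618). The EC-K4KO difference was no longer past the threshold without young EC-K4KO 1, young EC-K4KO 2, old EC-K4KO 1 or old EC-K4KO 2 (limma adjusted p of 0.0533 to 0.280). The difference of young EC-K4KO from old WT Cre lost it in 7 of the 9 fits with 1 library left out, all but those without young WT Cre 1 or young WT Cre 2 (limma adjusted p of 0.0580 to 0.343), and with a replicate block (limma adjusted p = 0.0643).

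The region in intron 3 of Plxna2 (chr1:194658320-194658868, 38.7 kb from the start) rose with age as well. Its fold was 3.99 and 4.90 in young WT Cre, 3.71, 7.58 and 6.24 in young EC-K4KO, 7.35 and 9.92 in old WT Cre and 11.4 and 10.2 in old EC-K4KO. Young EC-K4KO 2 lay inside the range of the old libraries. The difference was 0.43 ± 0.11 (log2, SE; limma adjusted p = 0.0156), and without old WT Cre 2 or old EC-K4KO 1 it was 0.34 and 0.39 (limma adjusted p = 0.0784 and 0.0665). A neighbouring region 32.4 kb from the start differed by 0.06 ± 0.08 (limma adjusted p = 0.634).

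The Sema3c promoter (chr5:17573795-17575170) was the region that fell. Its deposited folds, given above, overlapped between ages, while the normalized log2 fold was 2.45 ± 0.32 (SD, n = 2) and 2.41 ± 0.21 (n = 3) in young WT Cre and young EC-K4KO and 2.00 ± 0.11 (n = 2) and 2.11 ± 0.05 (n = 2) in old WT Cre and old EC-K4KO. The difference was -0.38 ± 0.12 (log2, SE; limma adjusted p = 0.0293). The fall is relative to the other shared regions. It lost the threshold without young WT Cre 1, or without any 1 of the 4 old libraries (limma adjusted p of 0.0663 to 0.106).

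In WT Cre alone, 2 member regions fell with age relative to the other shared regions, both over starts (13.1% of all regions passed). They were the Sema4c region (chr1:36556486-36558384), by 0.48 ± 0.13 on the log2 scale (limma adjusted p = 0.0402), and the Plxna2 promoter (chr1:194618894-194620903), by 0.50 ± 0.13 (limma adjusted p = 0.0358). The normalized log2 fold of the Plxna2 promoter was 2.78 and 2.62 in young WT Cre and 2.11 to 2.36 in the other 7 libraries. Both regions lost the threshold without either old WT Cre library, without either old EC-K4KO library and without young EC-K4KO 2, with limma adjusted p-values of up to 0.246. Sema4c also lost it without young WT Cre 2 and the Plxna2 promoter without young WT Cre 1.

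For genotype, the smallest p-values among member regions belonged to the last exon of Efna3, the start of Sema4c and the Plxna2 promoter, none past the threshold. The Efna3 region (chr3:89314354-89315841) had a normalized log2 fold of 2.53 and 2.59 in young WT Cre, 2.2, 2.23 and 2.15 in young EC-K4KO, 2.33 and 2.35 in old WT Cre and 2.29 and 2.29 in old EC-K4KO. The difference of EC-K4KO from WT Cre was -0.37 ± 0.10 in the young (limma adjusted p = 0.0768), -0.05 ± 0.11 in the old (limma adjusted p = 1.000) and -0.21 ± 0.08 over both ages (limma adjusted p = 0.230). The deposited folds were 4.11 and 4.41 in young WT Cre, 3.21, 5.41 and 5.14 in young EC-K4KO, 5.16 and 5.82 in old WT Cre and 6 and 5.89 in old EC-K4KO. By these, old EC-K4KO was above old WT Cre and the young groups overlapped. In the young alone, 0 member regions passed (1.79% of all regions did), and 5 of 17 (29.4%) had an unadjusted p under 0.05, against 1060 of 4872 (21.8%). The interaction had its smallest p-values at the same Sema4c and Plxna2 promoter regions (0.51 and 0.49 on the log2 scale, limma adjusted p = 0.540 and 0.561) and at the Plxna2 region 32.4 kb from the start (0.35, limma adjusted p = 0.618).

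**Figure D5:**
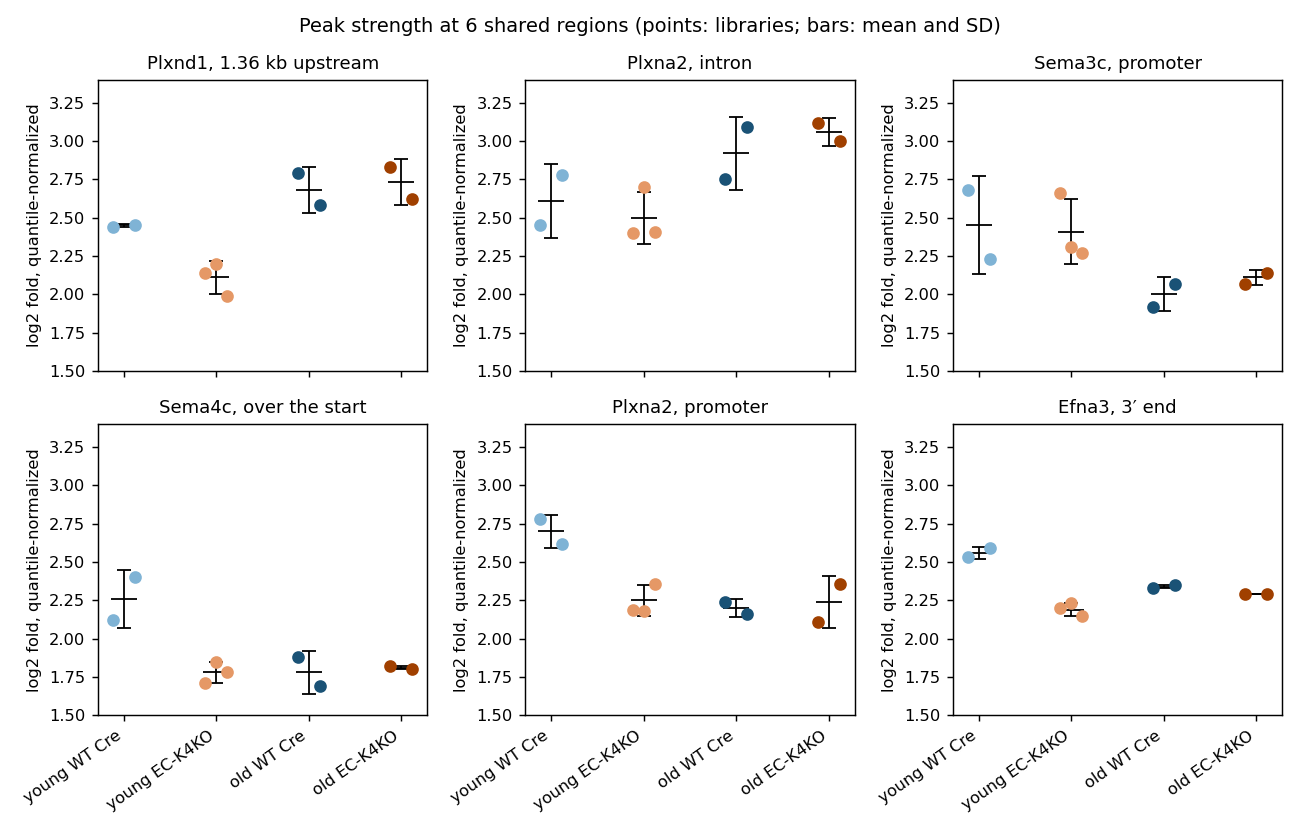
Quantile-normalized log2 fold enrichment at 6 guidance gene regions with a peak in all 9 libraries. Points are libraries, bars the mean and SD of each group, and the axis runs from 1.5 to 3.4 in every panel. At the Plxnd1 upstream region the 4 old libraries lie between 2.58 and 2.83 and the 5 young ones between 1.99 and 2.45.

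Genes that work with these ligands and receptors were counted from a list of 56 co-receptors (54 of them named in the lists), other ligands and signalling genes, among them Nrp1, Nrp2, Dcc, Rac1, Rhoa and Dpysl2. A promoter-TSS peak was found at 15 and 16 of them in young WT Cre, 26, 27 and 28 in young EC-K4KO, 29 and 29 in old WT Cre and 33 and 30 in old EC-K4KO. Most belonged to the 38 signalling genes, which had 14 and 14, then 22, 23 and 22, then 24 and 25, then 27 and 23. Of the 10 co-receptors and other guidance receptors, 0 to 4 had a promoter-TSS peak in any library. Across all gene names, 17.0% to 42.3% had one per library. Against young WT Cre, 7, 7 and 9 of the 56 gained a promoter-TSS peak in young EC-K4KO, old WT Cre and, last, old EC-K4KO. Of all gene names, 13.1%, 14.9% and 16.8% did so. A promoter-TSS or distal peak was lost by 0, 1 and 1 of the 56, and by 0.499%, 0.784% and 0.953% of all gene names. In lists of equal length the promoter gains were 1, 0 and 0, against 2.64%, 2.37% and 2.50% of all gene names.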

How the data were processed

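Nuclei of flow-sorted brain ECs were profiled in 9 libraries. According to the study's methods, reads were mapped to mm10 with Bowtie2 and broad peaks were called with MACS2, per library. The deposited lists give a score, a fold enrichment (a ratio to local background), and -log10 p and -log10 q per peak. The authors' annotation adds a class, a gene and a distance. Read counts were not analysed here.

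Peaks were read per library, ranked by -log10 p and joined by name to the members. Members and lists were chosen with earlier results of these data known. Peaks sharing 1 bp were merged, and log2 fold at 4872 regions was quantile-normalized and fitted with limma 3.58.1 (R 4.3.3) over 4 groups, with Benjamini-Hochberg adjustment, after a test on simulated data. Presence was described without a test. Python 3.11.15, pandas 2.3.3 and GENCODE M21 starts were used. Named genes were members with promoter-TSS peaks in all 9 libraries or gained or lost against young WT Cre, the 6 with most distal peaks, and shared regions past the threshold or, where none passed, with the 3 smallest p-values. Alternatives were equal-length lists, q under 0.01, promoters within 1000 bp, peaks in all libraries of a group, other normalizations, merging at 100 bp, a replicate block and each library left out.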

Additional observations from a re-analysis of the deposited data

How the results depend on the processing

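In full lists, counts of members with a peak were lowest in young WT Cre, which had the shortest lists. Among the longer lists they did not follow length throughout. A promoter-TSS peak was found at 32 members in old EC-K4KO 2 (39079 peaks) and at 28 in old EC-K4KO 1 (45026 peaks). In equal-length lists the mean number with a promoter-TSS peak was 7.5 and 6 in the young (WT Cre and EC-K4KO) and 5 and 6 in the old, and with promoters taken within 1000 bp of the start 11 and 29.3, then 36 and 41.5. With q under 0.01 it was 6.5 in young WT Cre and 25.5 in old WT Cre. Counting any peak over a start, an alternative chosen after seeing the data, the mean was 24.7 for young EC-K4KO and 33.5 and 38.0 for old WT Cre and EC-K4KO. Members with a distal peak averaged 9.67 in equal-length lists of young EC-K4KO and 9.50 and 11 in those of old WT Cre and EC-K4KO, and 25.3 and 38.0 in young EC-K4KO and old WT Cre with q under 0.01.

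Percentages in parentheses here are of all gene names under the same setting. Promoter gains against young WT Cre in equal-length lists were 1 in young EC-K4KO (2.64%) and 2 in each old group (2.37% and 2.50%). Within 1000 bp they were 16 in young (17.4%) and 23 in old EC-K4KO (23.1%), over any start 24 in old EC-K4KO (24.4%), and with a peak in all libraries of a group 3 in young EC-K4KO (5.76%). Distal gains in equal-length lists were 3, 1 and 2 (1.63%, 1.36% and 1.71%), and 13 in young EC-K4KO with q under 0.01 (16.0%). Losses in equal-length lists were 3 in young EC-K4KO (1.20%) and 5 and 4 in old WT Cre and EC-K4KO (2.33% and 2.74%). Old EC-K4KO against old WT Cre gave 1 promoter gain, 0 distal gains and 0 losses in equal-length lists (0.484%, 0.559% and 1.14%), 1, 6 and 2 with q under 0.01 (1.59%, 5.50% and 1.25%), and 0 losses within 1000 bp (1.92%). Against young EC-K4KO it gave 0 promoter gains and 1 distal gain in equal-length lists (0.809% and 1.12%), 11 distal gains with q under 0.01 (13.9%), 2 promoter gains, 4 distal gains and 0 losses within 1000 bp (3.28%, 7.28% and 4.64%), and 0 losses with a peak in all libraries (1.53%). The causes were not tested.

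With 1 library left out, promoter gains ranged from 4 to 13 in young EC-K4KO against young WT Cre, 2 to 6 in old EC-K4KO against old WT Cre and 4 to 8 against young EC-K4KO. Distal gains in these last comparisons ranged from 2 to 6 and from 2 to 8. Losses ranged from 0 to 1 in young EC-K4KO, 1 to 2 in old WT Cre and 0 to 1 in old EC-K4KO against young WT Cre, and in old EC-K4KO from 1 to 4 against old WT Cre and 0 to 3 against young EC-K4KO. Member regions past the limma threshold ranged from 1 to 4 for age, 0 to 3 for age in WT Cre, 0 to 2 for age in EC-K4KO, 0 to 2 for genotype in the young and 0 to 1 for young EC-K4KO against old WT Cre. A lone remaining library was assumed to vary like the other groups.

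Median centring gave 7 member regions for age, 2 for genotype in the young, 4 for age in WT Cre, 2 for age in EC-K4KO and 2 for young EC-K4KO against old WT Cre. With -log10 p as the measure these were 1 for genotype (Efna3, -0.70, limma adjusted p = 0.0467), 3 for genotype in the young, 1 for age in WT Cre and 2 for age in EC-K4KO. Over all shared regions, genotype gave 20 by median centring, 38 by -log10 p and 0 with the block, against 3, and genotype in the young gave 162, 215 and 4, against 87.

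Libraries with the same replicate number correlated at 0.005 to 0.184 after group means were removed, so the numbers were not taken as pairs. With a replicate block, young EC-K4KO against old WT Cre had 0 member regions, and the other contrasts kept their member counts. No read totals were used, so an absent peak may lie under the calling limit of a short list.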
